A study of Arabidopsis thaliana with 18 samples.

Results

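The PILS carriers (PIN-LIKES) of Arabidopsis thaliana were followed as 5 genes of the family, PILS2 (AT1G71090), PILS3 (AT1G76520), PILS5 (AT2G17500), PILS6 (AT5G01990) and PILS7 (AT5G65980), taken by locus identifier from a count table of 28278 rows. All 5 passed the filter on low counts and were fitted with 19383 genes in all. The other family members, PILS1 and PILS4, are given for comparison. RNA was sequenced from whole seedlings, grown for 4 d on plates in continuous light, of Col-0, the wild type (Wt), and of the mutants aff1-1 and aff1-3. AFF1 encodes an F-box protein that acts on the auxin response factors ARF7 and ARF19. The aff1-1 mutant came from an EMS screen in an arf19-1 mutant line that carries a 35S:YFP-ARF19 transgene. It has a point mutation that replaces a proline of AFF1 by a leucine. The study describes 3 back-crosses of this isolate to Col-0 and genotyping to remove nearby lesions. It does not say whether the sequenced seedlings came from that material, or whether they kept the transgene or the arf19-1 mutation. The second mutant is a T-DNA insertion line. The labels call it aff1-2 and the study's RNA-seq methods aff1-3, and as the study uses the name aff1-2 for another insertion, which of these was sequenced cannot be told from the sources used here; the name aff1-3 is used below. Each genotype was kept for 2 h in liquid medium with 10 µM of the auxin indole-3-acetic acid (IAA) or with ethanol (mock), which gave 6 groups of 3 samples.

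PILS proteins are auxin transport facilitators of the endoplasmic reticulum membrane, with a predicted topology like that of the PIN efflux carriers. They are known to hold auxin inside the cell, away from the nuclear TIR1/AFB receptors, and so to lower nuclear auxin signalling. PILS2 and PILS5 are known for limiting auxin-dependent growth in roots and hypocotyls, and PILS6 for a role in root growth at raised temperature. Transcript levels, the only quantity measured here, do not give the amount or place of the proteins.

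The 5 genes lie apart in the genome (RefSeq annotation of TAIR10.1). PILS2 is at chr1:26812156-26814173 on the plus strand and has 1 exon, and PILS3 is at chr1:28714765-28717910 on the plus strand with 10 exons. PILS4 starts 158 bases after the end of PILS3. PILS5 is at chr2:7606728-7609278 on the plus strand with 10 exons. PILS6 is at chr5:377231-379911 on the minus strand with 9 exons, and PILS7 is at chr5:26392336-26394768 on the plus strand with 8 exons. The RefSeq proteins run from 390 residues in PILS3 to 457 in PILS2. In global alignments PILS5 was 65.0% identical to PILS7, its closest relative, and PILS3 was 83.0% identical to PILS4 and 72.2% to PILS1. PILS2 and PILS6 were 41.0% identical to each other, and each shared less with any other member. Exons of PILS5 overlap the opposite-strand gene EMB2763 over 43 bases (2.4% of its exons) and those of PILS6 overlap AT5G01980 over 373 bases (21.3%), and since only unambiguous reads were counted and the strand setting is not given in the sources used here, reads from these stretches may have been left out of the counts. Neither of these neighbours was called in any comparison. No stretch of 50 bases, the read length, in a transcript of these genes occurred elsewhere in the genome, which bears on whether reads of PILS3 could have been counted as PILS4.

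The auxin response elements TGTCTC and, as a stronger ARF site, TGTCGG were searched for, as was the G-box CACGTG, on both strands upstream of each start. They are known to bind ARF factors and, for the G-box, bZIP or bHLH factors. Within 250 bases before and 50 after the start, PILS2 held CACGTG at 2 places and PILS7 held TGTCTC at 1, whereas PILS3, PILS5 and PILS6 held none of the motifs. Of 27443 promoters of the same length, 14.2% held TGTCTC, 5.1% held TGTCGG and 7.7% held CACGTG. In the 1000 bases upstream of PILS5 there was 1 match to TGTCGG, and CACGTG was found at 2 places. The shares of promoters with these motifs at that length were 14.6% and 14.8%, and 39.6% for TGTCTC. PILS3, the other gene called below, and PILS6 held none of the motifs at that length either. The sites of PILS5, PILS2 and PILS7 are shown since these are the members with a match, with the motif or its reverse complement in capitals. A further TGTCTC match, at -889 from the start of PILS7, is not shown.
PILS5 at chr2:7605728-7605757: cataaaaattagCCGACAaaaagaaaatat
PILS5 at chr2:7605949-7605978: gtaatttataaaCACGTGtagaacattata
PILS5 at chr2:7606139-7606168: ataatttataaaCACGTGtagaacctggca
PILS2 at chr1:26811905-26811934: ggttttgggttcCACGTGgatctgtttggt
PILS2 at chr1:26811944-26811973: ctattttattccCACGTGcgattactgatc
PILS7 at chr5:26392077-26392106: cattattaacctGAGACAatcccaaaagtc
Both G-boxes of PILS5, whose first bases are at -767 and -577 from its start, sat in one identical run of 23 bases (taatttataaaCACGTGtagaac). A match is a string of letters and does not show that a factor binds there.

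The 18 samples held between 12610301 and 36102396 counts. Levels are given as CPM, counts relative to library size, scaled by the trimmed mean of M-values (TMM). Samples of a group correlated with each other at Spearman rho 0.981 to 0.994 over genes, and the lowest values belonged to aff1-3 mock sample 2, which stood apart from the other samples of its group. Root and shoot markers were present in every group. The summed root markers (4 genes, of which PYK10 made up most) ran from 3107 to 4177 CPM in Wt mock, from 2390 to 2678 in aff1-1 mock and from 1829 to 2307 in aff1-3 mock, and with IAA from 2850 to 3186, 2579 to 2756 and 2164 to 2372. All aff1 samples lay below the Wt samples of the same treatment. With mock, 1 of the 4 root markers, the root beta-glucosidase PYK10, was called lower in each line, beside 1.62% of all genes in aff1-1 and 2.7% in aff1-3. COBL9 had mock means of 13.1 CPM in Wt, 9.48 in aff1-1 and 8.48 in aff1-3, and EXPA7 had 23.4, 20.3 and 17.3. These were lower in both lines without a call. PIN2 went the other way, with 0.06 ± 0.23 and 0.15 ± 0.23 on the log2 scale, also without a call. With IAA, 1 of the 4, the root hair expansin EXPA7, was called lower in each line, beside 1.71% and 1.33% of all genes. The mean of COBL9 with IAA was 6.80 CPM in Wt, 6.06 in aff1-1 and 7.11 in aff1-3. Those of PYK10, EXPA7 and PIN2 were lower in both lines, though PIN2 was at 44.9 CPM in aff1-3 against 47.0 in Wt. The summed shoot markers (4 genes, of which RBCS1A made up most) ran from 54013 to 65726 CPM over the mock samples, where Wt and aff1 overlapped. With IAA their range was 52583 to 54953 CPM in Wt, 59014 to 63971 for aff1-1 and 58212 to 62871 for aff1-3, so that all aff1 samples lay above all Wt samples. Of the 4 shoot markers, 1 was called higher in aff1-1 with IAA, the carbonic anhydrase CA1 (0.47 ± 0.07 on the log2 scale, adjusted p = 0.000229 by edgeR), while for aff1-3 CA1 had 0.27 ± 0.07 (adjusted p = 0.0261). The marker LHCB1.1 went the other way with IAA, at means of 3116 CPM in Wt, 2805 in aff1-1 and 2562 in aff1-3. RBCS1A and PSBO1 had higher means in both lines, like CA1. AFF1 had 0 to 9 counts in the Wt and aff1-1 samples and 46 to 144 in those of aff1-3, so the counts at this locus were higher, not lower, in the insertion line. In whole seedlings, fewer cells of a type and less RNA per cell cannot be told apart, and the part of the root and shoot shares in the results below was not tested.

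PILS5 was the member called in the most comparisons. With mock it had 32.9, 31.9 and 29.9 CPM in Wt, 54.6, 39.1 and 69.0 for aff1-1, and 60.3, 40.8 and 56.5 for aff1-3. With IAA it had 52.6, 60.4 and 49.6 CPM in Wt, 76.2, 69.8 and 74.0 for aff1-1, and 73.2, 72.0 and 64.4 for aff1-3. All IAA samples lay above all mock samples of their genotype, and all aff1 samples lay above all Wt samples of their treatment. How many of all genes show such a lack of overlap was not counted, so here and below it is a description only. The mock samples of aff1-1 and aff1-3 spread most, and in both lines sample 2 was the lowest. The mean was 31.5 ± 1.53 CPM (SD, n = 3) in Wt mock and 54.2 ± 5.57 in Wt with IAA. The mock means of the mutants, 54.2 ± 15.0 in aff1-1 and 52.5 ± 10.3 in aff1-3, lay near the latter, and their samples overlapped with those of Wt with IAA.

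**Figure D1:**
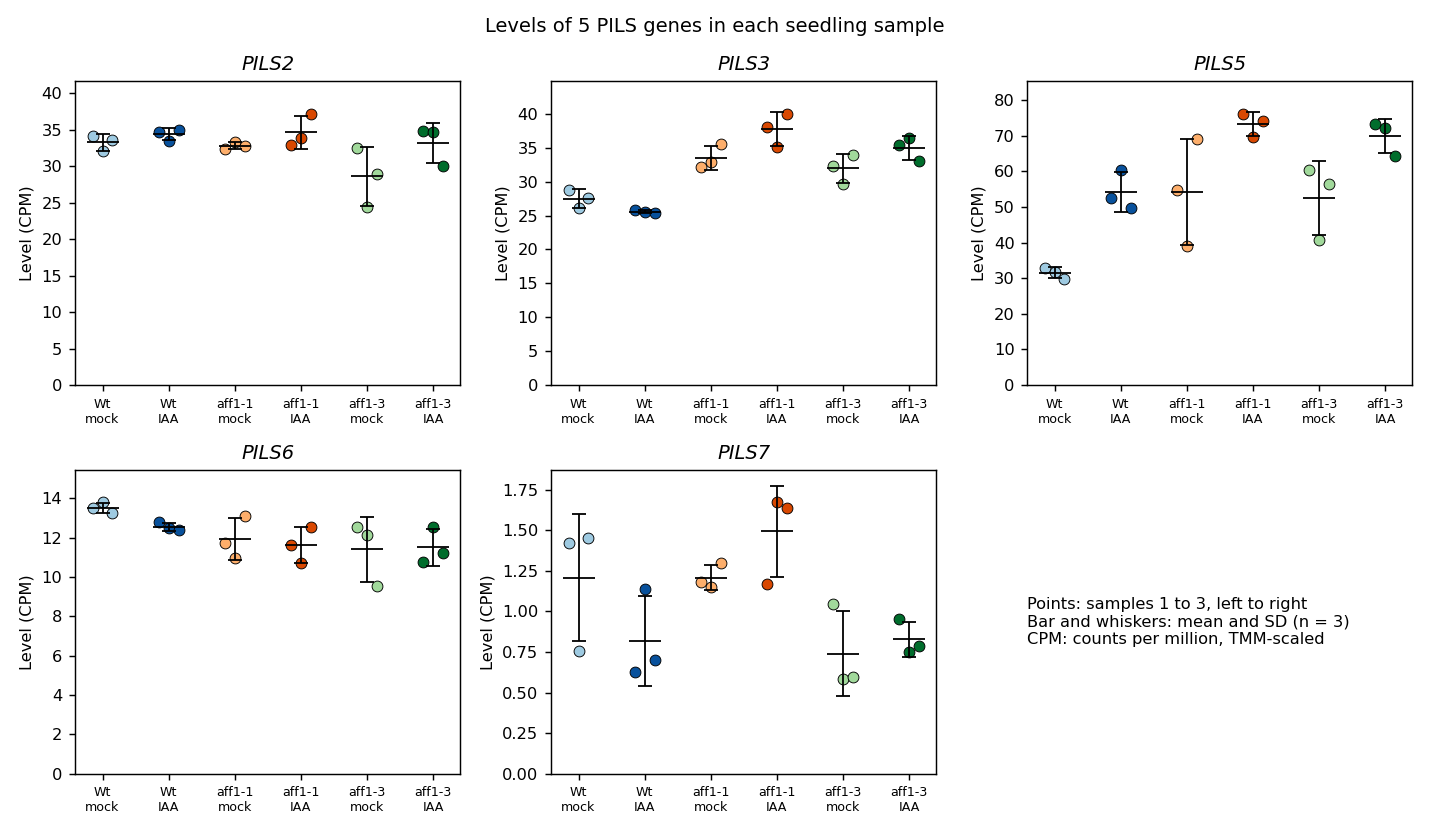
Level in CPM (vertical axes, from 0) of PILS2, PILS3, PILS5, PILS6 and PILS7 in each of the 18 samples, by genotype and treatment, with points for samples and bars and whiskers for the mean and SD of 3 samples. PILS5 rises from 31.5 CPM in Wt mock to 54.2 in Wt with IAA, while PILS2 and PILS6 keep near 1 level and PILS7 stays below 2 CPM.

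The first comparison asked how IAA changed the transcripts of each genotype. PILS5 rose in Wt, by 0.78 ± 0.15 on the log2 scale (SE), or 1.72-fold, with a 95% interval of 0.47 to 1.099 (adjusted p = 0.000697 by edgeR's quasi-likelihood test). It was 1 of 5 PILS genes past an adjusted p of 0.01 in Wt, where 9.66% of all tested genes were called. The PILS5 difference was 0.43 ± 0.15 for aff1-1 (adjusted p = 0.0914). For aff1-3 it was 0.41 ± 0.15 (adjusted p = 0.104). In aff1-1 0 of 5 PILS genes were called beside 4.87% of all genes, and in aff1-3 0 of 5 beside 4.95%. DESeq2 and limma, at an adjusted p below 0.01, also called 0 in both. At an unadjusted p below 0.05 edgeR gave 1 PILS gene in aff1-1 and 2 in aff1-3. By p among the 19383 genes tested, PILS5 ranked 1873 in aff1-1, and PILS5 and PILS2 ranked 2202 and 3351 in aff1-3. Many genes thus reached that unadjusted p. Averaged over the 3 genotypes, PILS5 rose by 0.54 ± 0.09 (1.46-fold, adjusted p = 5.11e-05) and was again 1 of 5 called, beside 14.7% of all genes. In Wt the PILS5 call was kept when each of the 6 samples was left out in turn, with differences of 0.68 to 0.84 on the log2 scale. In aff1-1 the PILS5 value was 0.64 (adjusted p = 0.00855) without mock sample 3 and 0.25 (adjusted p = 0.392) without mock sample 2, and in aff1-3 it was 0.26 (adjusted p = 0.395) without mock sample 2.

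The other members did not pass the threshold for IAA in any genotype. PILS2, which together with PILS5 had the highest level per length in untreated Wt, had differences of 0.05 ± 0.09 in Wt, 0.08 ± 0.10 in aff1-1 and 0.22 ± 0.10 in aff1-3 (adjusted p = 0.799, 0.754 and 0.204). Its IAA samples had 34.7, 33.5 and 35.0 CPM in Wt, 32.9, 33.8 and 37.2 for aff1-1, and 34.9, 34.7 and 29.99 for aff1-3, and they overlapped with the mock samples in every genotype. PILS3 gave -0.10 ± 0.08 in Wt, where its 3 IAA samples (25.4 to 25.8 CPM) lay just below its 3 mock samples (26.0 to 28.8 CPM). Its differences in the mutants were 0.17 ± 0.08 (aff1-1) and 0.13 ± 0.08 (aff1-3), where the samples overlapped. PILS6 gave -0.11 ± 0.12 in Wt, -0.04 ± 0.12 for aff1-1 and 0.01 ± 0.12 for aff1-3. PILS7 gave -0.53 ± 0.32 in Wt, 0.29 ± 0.31 for aff1-1 and 0.17 ± 0.36 for aff1-3 (adjusted p = 0.31, 0.713 and 0.849 by edgeR), the largest of these uncalled differences in Wt, at the lowest counts. In Wt the 3 IAA samples of PILS6, at 12.4 to 12.8 CPM, lay below its 3 mock samples, at 13.3 to 13.8 CPM, without a call. The 95% intervals of PILS6, from -0.35 to 0.26 over the 3 genotypes, leave room for changes up to about that size.

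The second comparison set each aff1 line against Wt, without and with IAA. With mock, PILS5 was higher in aff1-1 by 0.79 ± 0.15 (1.73-fold, 95% interval 0.47 to 1.11, adjusted p = 0.00168 by edgeR) and in aff1-3 by 0.74 ± 0.15 (1.67-fold, 95% interval 0.42 to 1.05, adjusted p = 0.002). It was 1 of 5 PILS genes called in each line, beside 4.58% of all genes in aff1-1 and 6.78% in aff1-3. These values share the Wt mock samples with each other and with the IAA response of Wt. Both rested on few samples. The aff1-1 call ended without Wt mock sample 3 (0.75, adjusted p = 0.0125) and without aff1-1 mock sample 3 (0.58, adjusted p = 0.0218). The aff1-3 call ended without Wt mock sample 3 (0.70, adjusted p = 0.0148), without aff1-3 mock sample 1 (0.63, adjusted p = 0.0128) and without aff1-3 mock sample 3 (0.68, adjusted p = 0.0101). Without the mock samples numbered 2 of both lines, an alternative chosen after the values were seen, the differences were 0.97 (adjusted p = 1.96e-06 by edgeR) and 0.89 (adjusted p = 4.51e-06). Those samples had the lowest PILS5 values of their groups, and Wt mock sample 2 was kept. Larger differences and a smaller spread thus followed from the choice, and these p-values add no support.

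With IAA, the PILS gene called against Wt was PILS3 in both lines. PILS3 had 25.8, 25.5 and 25.4 CPM in Wt, 38.1, 35.0 and 40.03 for aff1-1, and 35.5, 36.5 and 33.0 for aff1-3. The aff1 samples all lay above the Wt samples, with 33.0 CPM the lowest of them. PILS3 was higher by 0.56 ± 0.08 in aff1-1 (1.48-fold, 95% interval 0.39 to 0.74, adjusted p = 0.000113) and by 0.45 ± 0.08 in aff1-3 (1.37-fold, 95% interval 0.28 to 0.63, adjusted p = 0.00114). Leaving out any 1 of the samples compared kept both calls, with differences of 0.52 to 0.61 and of 0.42 to 0.49. PILS3 was 1 of 5 called in aff1-1, beside 6.17% of all genes (4.46% called higher), and 1 of 5 in aff1-3, beside 4.72% (3.39% called higher). PILS5 differed in the same direction by 0.44 ± 0.15 for aff1-1 (adjusted p = 0.0537) and 0.37 ± 0.15 for aff1-3 (adjusted p = 0.147), short of the threshold. When only the groups compared were fitted, PILS5 passed it for both lines (adjusted p = 0.0011 for aff1-1 and 0.00801 for aff1-3), and limma with sample weights called it in aff1-1 (adjusted p = 0.0077). In the same comparison all aff1 samples had smaller root marker sums and larger shoot marker sums than all Wt samples, as given above. These sums rest mostly on PYK10 and RBCS1A, and single markers did not all follow them. The part of root or shoot shares in the PILS3 difference was not tested.

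With mock, PILS3 had 28.8, 26.0 and 27.7 CPM in Wt, 32.2, 32.9 and 35.5 for aff1-1, and 32.4, 29.6 and 33.9 for aff1-3. The Wt and aff1 samples did not overlap here either, which was not counted over all genes. The difference was 0.29 ± 0.08 for aff1-1 (adjusted p = 0.0316) and 0.22 ± 0.08 for aff1-3 (adjusted p = 0.0924), and neither passed 0.01.

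PILS2, PILS6 and PILS7 were not called between genotypes. PILS2 had 34.2, 32.03 and 33.6 CPM in Wt mock, 32.4, 33.3 and 32.7 in aff1-1 mock and 32.5, 24.4 and 29.0 in aff1-3 mock, and the highest sample of aff1-3 lay inside the range of Wt. It was at 28.6 ± 4.09 CPM (SD, n = 3) in aff1-3 mock and at 32.8 to 34.6 CPM on average in the other groups. Its lowest sample, at 24.4 CPM, was aff1-3 mock sample 2, and the difference from Wt mock was -0.22 ± 0.09 (adjusted p = 0.153). PILS6 had 13.5, 13.8 and 13.3 CPM in Wt mock, 11.8, 10.98 and 13.1 in aff1-1 mock, and 12.6, 12.2 and 9.52 in aff1-3 mock. All 6 aff1 mock samples lay below those of Wt, and the fitted differences were -0.17 ± 0.12 in aff1-1 and -0.24 ± 0.12 in aff1-3 (adjusted p = 0.395 and 0.185 by edgeR). Both lines were set against the same Wt samples, and the share of all genes with such a gap was not counted. With IAA, PILS6 had 12.8, 12.5 and 12.4 CPM in Wt, 11.6, 10.7 and 12.5 for aff1-1, and 10.8, 12.5 and 11.2 for aff1-3. Here the differences were -0.11 ± 0.12 and -0.12 ± 0.12, and the aff1 samples overlapped with those of Wt.

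PILS7, the closest relative of PILS5, was the member with the lowest level, at 10 to 52 counts per sample. It passed the filter through Wt mock, aff1-1 mock and aff1-1 with IAA, the groups with at least 2 samples above 1 CPM. With IAA it had 0.625, 1.14 and 0.698 CPM in Wt, 1.17, 1.67 and 1.64 for aff1-1, and 0.952, 0.747 and 0.789 for aff1-3. The aff1-1 samples lay above the others, with a difference from Wt of 0.81 ± 0.32 (95% interval 0.15 to 1.47, adjusted p = 0.0971) that did not pass the threshold. With mock, PILS7 had 1.42, 0.755 and 1.45 CPM in Wt, 1.18, 1.15 and 1.30 for aff1-1, and 1.04, 0.581 and 0.595 for aff1-3, and the aff1-3 difference from Wt was -0.71 ± 0.32 (adjusted p = 0.17). Its standard errors were larger than those of every other member in all 13 comparisons.

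**Figure D2:**
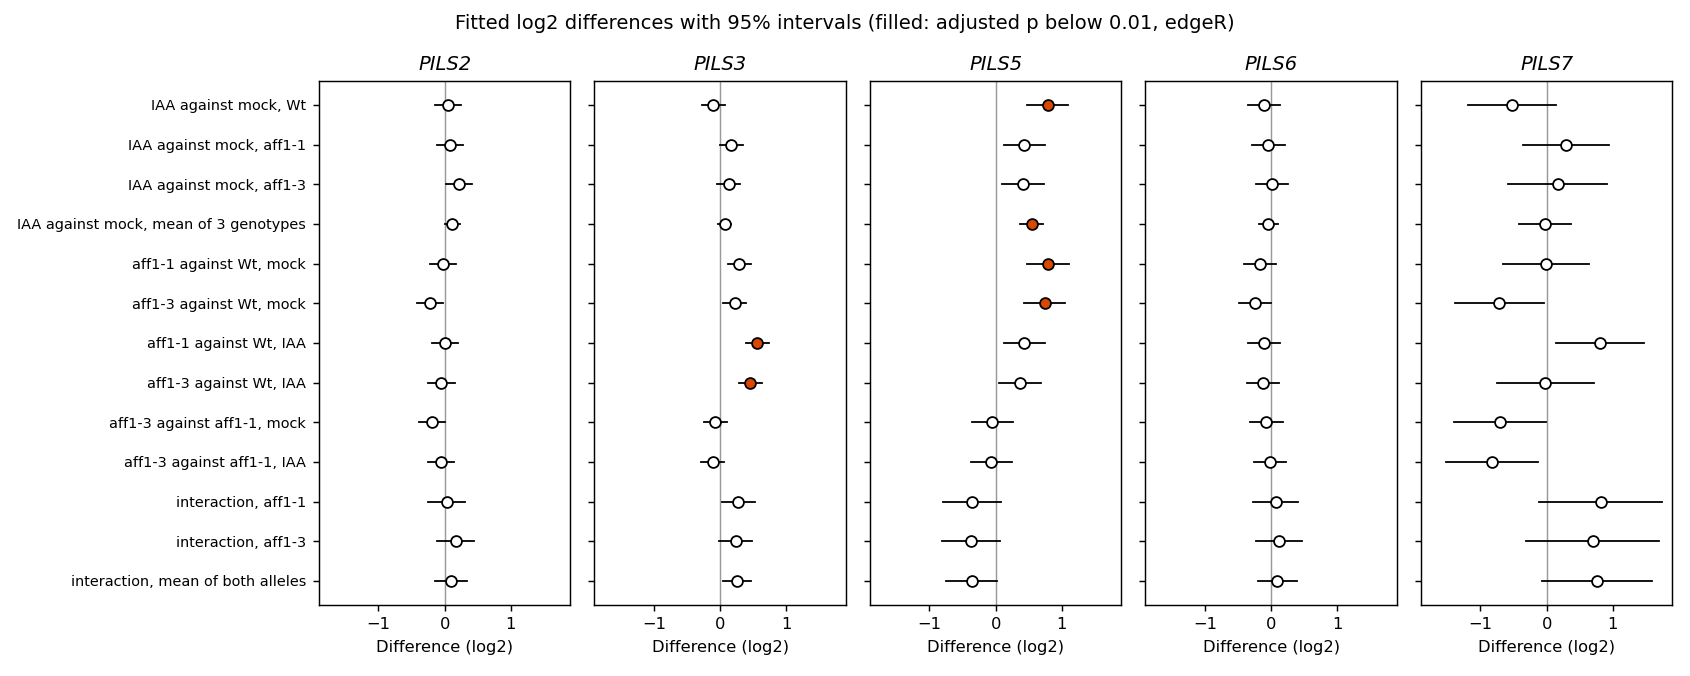
Fitted log2 difference (horizontal axes) with its 95% interval for each of 5 PILS genes (panels) in 13 comparisons (rows), with filled points where the adjusted p by edgeR was below 0.01. The filled points are PILS5 for IAA in Wt (0.78) and on average (0.54) and for both aff1 lines with mock (0.79 and 0.74), and PILS3 for both aff1 lines with IAA (0.56 and 0.45).

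The third comparison asked whether the alleles differed from each other. No PILS gene was called between aff1-3 and aff1-1, with mock (0 of 5, beside 0.139% of all genes) or with IAA (0 of 5, beside 0.181%). DESeq2 and limma, at an adjusted p below 0.01, also called 0 in each treatment. In each treatment edgeR gave 1 PILS gene at an unadjusted p below 0.05. That gene ranked 1926 with mock and 1348 with IAA by p among the 19383 genes tested, so many genes reached that p. PILS5 differed by -0.05 ± 0.15 with mock (95% interval -0.36 to 0.26) and by -0.07 ± 0.15 with IAA (95% interval -0.38 to 0.24). PILS3 differed by -0.07 ± 0.08 and -0.11 ± 0.08. The gene at an unadjusted p below 0.05 was PILS7 both times, at -0.70 ± 0.33 (adjusted p = 0.477 by edgeR) and -0.83 ± 0.33 (adjusted p = 0.31). All aff1-3 samples lay below all aff1-1 samples in each treatment. PILS7 met the filter on low counts in the aff1-1 groups and not in the aff1-3 groups, so this gap is a description only.

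Whether the IAA response itself differed between aff1 and Wt was tested by the interaction of genotype and treatment. For PILS5 the fitted difference in response was -0.36 ± 0.18 on the log2 scale in the mean of both alleles (95% interval -0.75 to 0.02, adjusted p = 0.434 by edgeR), with -0.35 ± 0.21 in aff1-1 and -0.37 ± 0.21 in aff1-3. With 1 sample left out, the PILS5 value ranged from -0.54 (without aff1-1 mock sample 2) to -0.14 (without aff1-1 mock sample 3) for aff1-1 and from -0.52 to -0.26 for aff1-3 (without aff1-3 mock samples 2 and 1). Without the mock samples numbered 2 of both lines, the alternative chosen after the values were seen, the mean of both alleles was -0.53 ± 0.12 (adjusted p = 0.0309 by edgeR), also short of 0.01. As those samples had the lowest PILS5 values of their groups, a more negative value followed from the choice and adds no support. For PILS3 the interaction had the opposite sign, 0.25 ± 0.10 (95% interval 0.04 to 0.47, adjusted p = 0.301 by edgeR). For PILS7 it was 0.76 ± 0.40 (adjusted p = 0.456 by edgeR). None of these passed the threshold, so a different IAA response of PILS5 or PILS3 in aff1 was not shown, and the intervals leave room for one. Interactions called 0 of 5 PILS genes in aff1-1 (beside 0.0722% of all genes), 0 of 5 in aff1-3 (0.0877%) and 0 of 5 on average (0.232%). DESeq2 and limma, at an adjusted p below 0.01, also called 0 in all 3. At an unadjusted p below 0.05 edgeR gave 1, 0 and 1 PILS genes. That gene was PILS3, ranked 1641 in aff1-1 and 1372 on average by p among the 19383 genes tested, so many genes reached that p.

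Levels were compared between genes per kb of exon. In Wt mock PILS5 stood first at 17.7 ± 0.857 CPM per kb (SD, n = 3) and PILS2 second at 16.5 ± 0.549, and their samples overlapped. PILS3 followed at 11.4 ± 0.567, PILS6 at 7.73 ± 0.151 and PILS7 at 0.630 ± 0.205, each clear of its neighbours. With IAA or in aff1, PILS5 stood further above PILS2, at 30.4 against 17.0 CPM per kb in Wt with IAA and at 41.2 against 17.2 in aff1-1 with IAA. PILS5 made up 32.8% ± 1.20 (SD, n = 3) of the summed level per kb of the 5 genes in Wt mock and 46.3% ± 2.69 in Wt with IAA. It made up 44.2% ± 6.39 in aff1-1 mock and 50.6% ± 1.49 with IAA, and 45.9% ± 3.39 in aff1-3 mock and 50.8% ± 0.636 with IAA. The sum itself went from 53.9 ± 1.59 CPM per kb in Wt mock to 65.7 ± 2.88 with IAA, and was highest in aff1-1 with IAA at 81.4 ± 3.64. As a share also moves when other members move, these are descriptions.

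**Figure D3:**
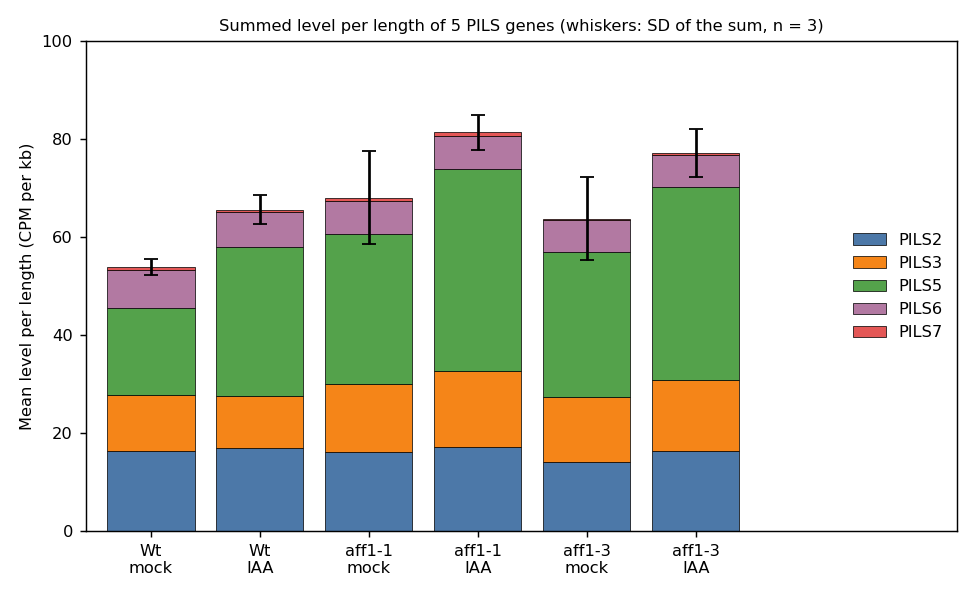
Mean level per length (CPM per kb of exon, vertical axis from 0) of 5 PILS genes, stacked for each group, with whiskers for the SD of the sum over 3 samples. The sum is 53.9 in Wt mock and 81.4 in aff1-1 with IAA, and the PILS5 segment grows from 17.7 to 41.2.

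The family members PILS1 and PILS4, the closest relatives of PILS3, had low counts, and PILS1 was near the limit of detection. PILS1 had 0 to 5 counts and was at 0 in 7 of 18 samples. The limit was set at 3 counts, an approximate upper bound for a count of 0. It equals 0.0831 to 0.238 CPM at the depths of the 18 samples. This bound covers counting error only. PILS4 had 0 to 20 counts and was at 0 in 1 of 18 samples. Neither gene passed the filter, so neither was tested and no statement on differences is made. PILS3, which lies directly before PILS4, had 418 to 1197 counts.

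Across the 18 samples PILS3 and PILS5 varied most alike among the members, with Pearson r = 0.673 and Spearman rho = 0.779 over log2 CPM (n = 18), which includes the differences between groups that the tests above give. After the group means were taken away r was 0.576 for PILS3 and PILS5 and 0.653 for PILS2 and PILS3. The 3 samples of Wt with IAA departed from the common trend, with high PILS5 and the lowest PILS3. In each sample both genes were counted in the same library, and with group means taken away the 18 samples hold fewer free values. The coefficients are therefore descriptions.

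**Figure D4:**
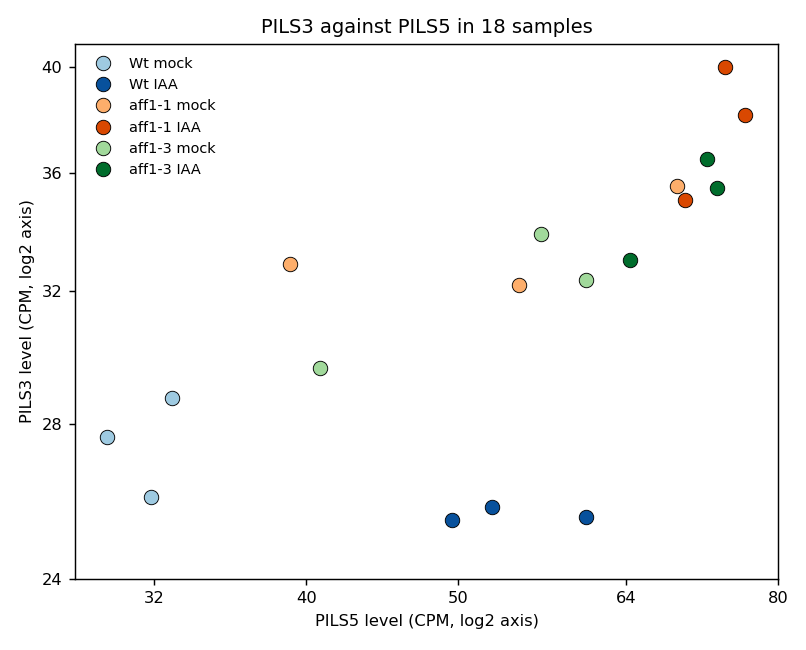
PILS3 level against PILS5 level in 18 samples (CPM, both axes log2), coloured by genotype and treatment. Wt with IAA (PILS5 49.6 to 60.4, PILS3 25.4 to 25.8) lies below the band formed by the other samples.

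Among 19378 other tested genes, the most like PILS5 over the 18 samples were VOZ1 (r = 0.945), a transcription factor, AT5G19440 (r = 0.942) and ALDH7B4 (r = 0.941), an aldehyde dehydrogenase. For PILS3 they were CYP710A1 (r = 0.934), a sterol desaturase, PMT6 (r = 0.932), a polyol transporter, and NAC3 (r = 0.93), a NAC transcription factor. These coefficients include the differences between groups, so that calls shared with the members follow in part from how the genes were chosen. Likeness was weaker for PILS7, led by TBL15 (r = 0.852), PILS2, led by SHM7 (r = 0.848), and PILS6, led by AT5G49500 (r = 0.808).

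The other genes that carry or consume IAA placed the PILS response among its neighbours, for IAA averaged over the 3 genotypes. Of the other intracellular carriers, WAT1, a vacuolar auxin exporter, rose by 1.25 ± 0.05 (adjusted p = 2.65e-14), whereas PIN5, a carrier of the endoplasmic reticulum, and PIN6, found there and at the plasma membrane, gave -0.37 ± 0.21 and 0.10 ± 0.21 and were not called. PIN8 had 0 to 7 counts and was not tested. Of the 8 carriers of the plasma membrane considered, 6 rose and 0 fell, beside 7.9% higher and 6.82% lower among all genes, with a median of 0.65 against -0.00113 over all tested genes. The largest of the 8 was PIN3, an efflux carrier, at 1.14 ± 0.06 (adjusted p = 3.19e-12). Of the 9 enzymes that conjugate or oxidise IAA, 8 were tested, 6 rose and 1 fell, with a median of 2.92, led by GH3.3 at 5.60 ± 0.11 and GH3.2 at 4.69 ± 0.17 (adjusted p = 1.2e-19 and 3.07e-15 by edgeR). The median over the 5 PILS genes was 0.07, and PILS5 at 0.54 was near PIN4 (0.51) and AUX1 (0.51). All values in this paragraph are log2 differences, and differences between lists were not tested.

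**Figure D5:**
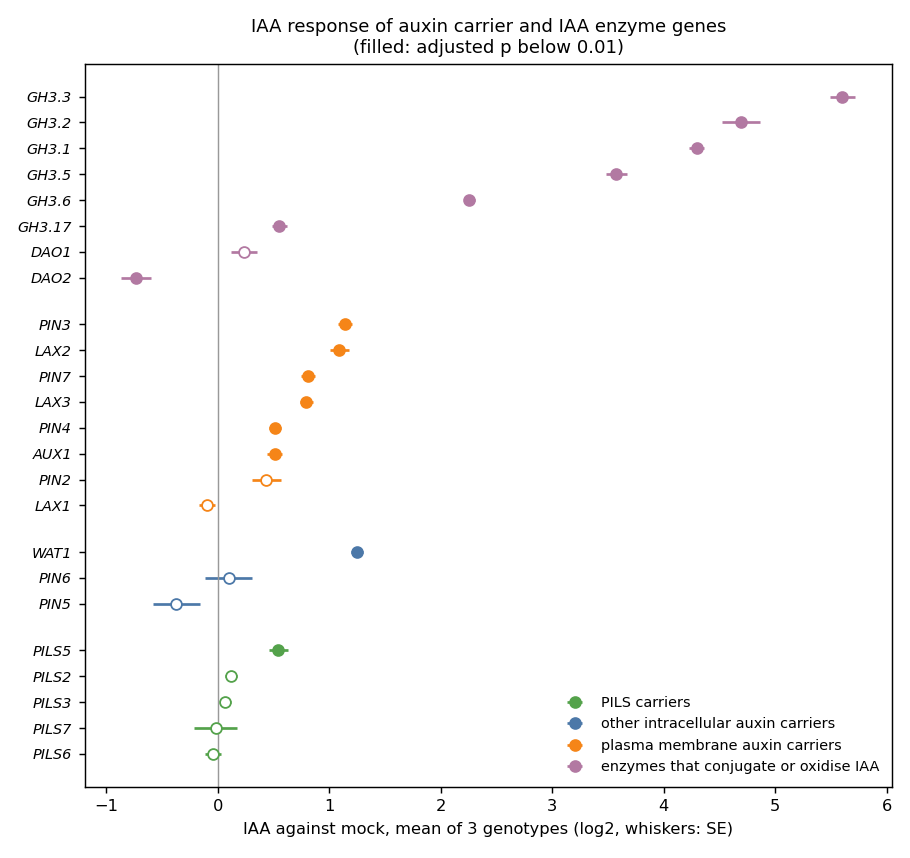
Log2 difference of IAA against mock averaged over 3 genotypes (horizontal axis, whiskers for the SE) for 24 tested auxin carrier and IAA enzyme genes, coloured by list and filled where the adjusted p was below 0.01. PILS5, at 0.54, is the only filled PILS gene, while 6 of 8 carriers of the plasma membrane are filled and lie between 0.51 and 1.14.

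The same lists were compared between genotypes. With mock, 3 of 8 tested enzymes were higher in aff1-1, beside 2.96% of all genes, and 1 of 8 in aff1-3, beside 4.08%. GH3.3, which conjugates IAA to amino acids, was higher in both lines, by 1.68 ± 0.18 and 1.48 ± 0.18 (adjusted p = 3.99e-06 and 9.68e-06 by edgeR). Among the same enzymes with IAA, 1 of 8 was higher and 1 lower in aff1-1, beside 4.46% and 1.71% of all genes. In aff1-3 with IAA, 0 were higher and 1 was lower, beside 3.39% and 1.33%. With IAA, 1 of 8 plasma membrane carriers was lower in each line (beside the 1.71% and 1.33% of all genes given above), the influx carrier LAX3, at -0.96 ± 0.10 for aff1-1 and -1.02 ± 0.10 for aff1-3 (adjusted p = 2.53e-06 and 9.45e-07 by edgeR). WAT1 gave -0.32 ± 0.09 and -0.31 ± 0.09 for aff1-1 and aff1-3 with mock and -0.33 ± 0.09 and -0.44 ± 0.09 with IAA (adjusted p = 0.0258, 0.0228, 0.014 and 0.00204 by edgeR), of which the last passed the threshold. Interactions called 2, 1 and 2 of 8 enzymes lower and 0 higher in aff1-1, in aff1-3 and on average. Of the plasma membrane carriers, 0, 0 and 1 of 8 were called lower and 0 higher. The shares of all genes called in either direction were 0.0722%, 0.0877% and 0.232%. No PILS gene was called lower in any of these comparisons. The median over the 5 PILS genes was -0.00876 in aff1-1 and -0.216 in aff1-3 with mock and 0.436 and -0.018 with IAA, while that over all tested genes was between -0.00642 and -0.000354 in all 4.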

How the data were processed

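RNA of 18 seedling samples was sequenced as single 50-base reads. Per the labels and the study's methods, the authors aligned them to TAIR10 with STAR and deposited the counts of uniquely aligned, unambiguous reads per gene made by featureCounts of Subread. The strand setting is not given in the sources used here. The deposited whole-number counts were not normalized. The labels give the IAA dose once in another unit, and the dose in the titles and the paper was used.

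Samples were grouped by genotype and treatment from the labels. After 4 rRNA rows were left out, the genes tested were those that exceeded 1 CPM in 2 or more samples of any group. Counts were scaled by TMM and fitted in 1 model of 6 groups with edgeR 4.0.16 in R 4.3.3 (quasi-likelihood F test, two-sided), with 13 contrasts and Benjamini-Hochberg adjustment over all genes tested within each, and a gene was called at an adjusted p below 0.01. Standard errors were computed from the same fit, as the absolute log2 difference over the square root of its F statistic. The 95% intervals used these with a t quantile, so both restate the p-value. CPM per kb used the union of annotated exons. Alternatives were DESeq2 1.42.0, its size factors in edgeR, limma 3.58.1 with sample weights, no filter, a fit of the compared groups alone, a replicate block, a threshold of 0.05, no organelle genes, and each sample left out. The fit was also run on simulated counts, with changes set only in aff1-1 mock and only in genes above a count minimum. That run covered only the aff1 comparisons with Wt under mock, and its outcome is not given here. It does not bear on the IAA responses, the interactions or genes at low counts.

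The study describes 3 repeated treatments per line and does not say whether seedlings came from separate batches, so p-values measure only the spread between these samples, which may be technical. No 2 samples held identical values. The 5 genes were named by locus, and genes most like them were the 3 with the highest Pearson r over the 18 samples. The members, lists and tests were chosen with earlier results of these data known. The window of 1000 bases and the joint removal of 2 mock samples were chosen after the data were seen. One gene of the list of plasma membrane carriers is not reported here and was left out of the counts of that list.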

Additional observations from a re-analysis of the deposited data

How the results depend on the processing

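The PILS5 rise in Wt and on average and the PILS3 differences with IAA stayed past the threshold, in the same direction, under every alternative run. With each sample left out, 535 values of single PILS genes kept direction and side of the threshold, 29 changed sign, 5 lost the threshold and 1 gained it. The PILS genes called then ranged from 0 to 1 for IAA in aff1-1 and for aff1-1 and aff1-3 against Wt with mock, and the calls lost or gained were all of PILS5. At an adjusted p below 0.05, aff1-1 with mock gave 2 PILS genes, the added one being PILS3. With IAA, aff1-1 gave 2 with limma and 2 with only the groups compared, and aff1-3 gave 2 with only the groups compared, with PILS5 added; the cause was not tested.

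Values that were not called changed sign. With limma, PILS7 in aff1-3 against Wt with IAA was 0.0226 and PILS5 in aff1-3 against aff1-1 with mock was 0.0111, and without both mock samples numbered 2, PILS7 in aff1-1 against Wt with mock was 0.0210. With each sample left out, PILS6 ranged from -0.10 to 0.0328 for IAA in aff1-1, from -0.10 to 0.0905 for IAA in aff1-3, from -0.15 to 0.0457 for aff1-3 against aff1-1 with mock and from -0.0860 to 0.0426 with IAA. PILS7 ranged from -0.14 to 0.0898 for the mean IAA response, from -0.24 to 0.16 for aff1-1 against Wt with mock and from -0.16 to 0.34 for aff1-3 against Wt with IAA. PILS2 ranged from -0.0442 to 0.0491 and from -0.0840 to 0.0170 for aff1-1 and aff1-3 against Wt with IAA, from -0.10 to 0.0054 for aff1-3 against aff1-1 with IAA and from -0.0236 to 0.0697 for the aff1-1 interaction. PILS5 ranged from -0.23 to 0.16 for aff1-3 against aff1-1 with mock.

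These counts over all genes moved by over 1.5 times. DESeq2 called 1818 genes against 1196 for aff1-1 against Wt with IAA, 61 against 27 and 107 against 35 between the aff1 lines with mock and IAA, and 94, 117 and 164 against 14, 17 and 45 for the interactions in aff1-1, in aff1-3 and on average. Limma called 2948 and 1387 against 1196 and 915 for aff1-1 and aff1-3 against Wt with IAA, and 48, 11 and 80 for the interactions. No filter gave 55 between the aff1 lines with IAA and 37, 43 and 73 for the interactions. Fits of only the groups compared gave 559 against 959 for IAA in aff1-3, 612 against 1314 for aff1-3 against Wt with mock, 2371 for aff1-1 against Wt with IAA, 9 between the lines with mock and 29 for the aff1-1 interaction. The 0.05 threshold gave 3072 against 1873, 1452 against 944 and 1629 against 959 for IAA in Wt, aff1-1 and aff1-3, 1879 against 887 and 2493 against 1314 for aff1-1 and aff1-3 against Wt with mock, 2779 and 1752 with IAA, 47 and 84 between the aff1 lines with mock and IAA, and 67, 98 and 151 for the interactions. Without both mock samples numbered 2, 11 genes were called between the lines with mock and 38 for the aff1-1 interaction. With each sample left out, 48 counts over all genes moved by over 1.5 times and 66 did not, so shares of all genes called rest in part on single samples. For aff1-1 and aff1-3 against Wt the lowest were 437 (without aff1-1 mock sample 3) and 874 (without Wt mock sample 1) with mock and 554 and 509 (both without Wt IAA sample 3) with IAA. Deviations of same-numbered samples had r from -0.283 to 0.261 (8 of 45 over 0.1). Others were not compared, so pairing was not tested. A replicate block changed no call of a PILS gene (PILS5 for IAA in Wt 0.79, in aff1-1 with mock 0.78 and in aff1-3 with mock 0.73) and moved 1 count by over 1.5 times, the aff1-1 interaction, from 14 to 22.

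At 10 to 52 counts, small changes of PILS7 were not detectable.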

Other observations

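The opposite-strand and adjacent genes of the members gave values of their own. EMB2763, which overlaps PILS5, had a mean of 436 counts per sample and differed by 0.22 ± 0.14 for IAA in Wt (adjusted p = 0.321 by edgeR's quasi-likelihood test), by 0.10 ± 0.14 in aff1-1 against Wt with mock and by -0.01 ± 0.14 in aff1-3. AT5G01980, which overlaps PILS6, had a mean of 478 counts and differed by 0.07 ± 0.10 in aff1-1 and 0.12 ± 0.10 in aff1-3 with mock, where PILS6 had -0.17 and -0.24. AT5G65990, the gene next to PILS7, had -0.43 ± 0.11 in aff1-1 with mock (adjusted p = 0.016 by edgeR), where PILS7 had -0.01.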
